A study of Mus musculus with 18 samples.

Results

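Caspase-1, its relatives and the genes of the inflammasome and of necroptosis were followed in RNA sequencing of mouse heart apex. The 9 genes are Casp1, Casp4, Casp12, Casp8, Nlrp3, Pycard, Gsdmd, Ripk3 and Mlkl. They were chosen with earlier results of these data known and matched by symbol among the 54532 genes of the deposited count table. Of them, 9 of 9 passed the filter on low counts, with 17876 genes in all. Inflammasomes are protein scaffolds on which a sensor such as NLRP3 and the adaptor ASC activate caspase-1, which matures interleukin-1β and interleukin-18 and cuts gasdermin D, whose fragment makes pores in the membrane (pyroptosis). Necroptosis is another lytic death, in which the kinase RIPK3 phosphorylates MLKL, and caspase-8 restrains it. In the heart both are known mainly from ischaemic and inflammatory injury, and both fibroblasts and resident macrophages can carry the parts as well as cardiomyocytes.

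The study asked what raised lamin A or lamin C does in a mouse dilated cardiomyopathy made by lowering Lmna, with recombinant adeno-associated virus serotype 9 (rAAV9) as the carrier. The 18 libraries, 3 in each of 6 groups, form the labels' batches LC and LA. Each batch has 3 controls and 3 hearts given as Lmna shRNA, named L881 in the titles. The last 3 hearts carry Lmna shRNA plus Lamin C in batch LC, and Lmna shRNA plus Lamin A in batch LA. The genotype of all 18 is wild type by the labels. The sources used here give no age, sex, promoter or dose, nor what the controls received. Each lamin occurred in 1 batch, so a lamin and its batch cannot be told apart except through that batch's own control and shRNA hearts. Nothing in the labels says which libraries share a litter or a cage, so the p-values measure only the spread between these samples.

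Library totals ran from 31418657 to 41259968 counts, at which 3 counts equal 0.0622 to 0.108 CPM (the count relative to the TMM-scaled library size). Lmna itself showed no fall under the shRNA, with a log2 fold change of 0.06 ± 0.08 (SE; edgeR adjusted p = 0.578) in batch LC and 0.11 ± 0.08 (adjusted p = 0.258) in batch LA. Lmna rose with Lamin C by 3.29 ± 0.09 (adjusted p = 8.82e-15) and with Lamin A by 2.07 ± 0.08 (adjusted p = 1.79e-11) against the shRNA hearts of the batch. These counts do not tell the mouse gene's own transcripts from RNA of a delivered lamin, so the groups are named by their labels throughout. The third control of each batch carries a label number far from those of the rest of its batch, and results that move without these libraries are given both ways. Cardiomyocyte markers were high in every library, between 28830 and 75540 CPM summed over 7 genes. Bulk RNA cannot tell fewer cells of a type from less RNA per cell.

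The 9 genes lie at 7 places of the genome (build mm10), since the 3 caspases of the inflammatory group are neighbours on chromosome 9. Casp1 (ENSMUSG00000025888, chr9:5298517-5307265), Casp4 (ENSMUSG00000033538, chr9:5308828-5336783) and Casp12 (ENSMUSG00000025887, chr9:5345430-5373032) all lie on the plus strand. The gaps are 1562 bases between Casp1 and Casp4 and 8646 bases between Casp4 and Casp12, and the whole cluster spans 74516 bases. Casp8 (ENSMUSG00000026029) lies at chr1:58795374-58847503 and Nlrp3 (ENSMUSG00000032691) at chr11:59541568-59566956, both on the plus strand. Pycard (ENSMUSG00000030793) lies at chr7:127989708-127993867 on the minus strand and Gsdmd (ENSMUSG00000022575) at chr15:75862327-75867408 on the plus strand. Ripk3 (ENSMUSG00000022221) lies at chr14:55784995-55788865 and Mlkl (ENSMUSG00000012519) at chr8:111311797-111338177, both on the minus strand. No source used here says whether reads were assigned by strand, which bears on Pycard: the antisense gene Gm45205 overlaps 485 of its exon bases (12.8%), with 130 counts in 18 libraries against 6391 for Pycard.

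The stretches upstream of the gene starts are shown for those members that hold a searched motif. RefSeq promoter windows (GRCm38.p6, 250 bases before to 50 after a start) were matched for 8 of the 9 genes, in 10 windows, and read on both strands for the interferon-response core (a pair of GAAA runs with any 2 bases between), the STAT-type site TTCNNNGAA and the NF-kB consensus. Of 32851 windows of the table, 3.44% held the first, 8.3% the second and 4.51% the third. Among the members, 3 genes held any of them. The lines give the plus strand from 5′ to 3′, with matches in capitals. Casp4 and Nlrp3 each hold the NF-kB consensus (chr9:5308599-5308827 and chr11:59541319-59541567), in Casp4 as overlapping matches on both strands and in Nlrp3 on the minus strand. Casp12 (chr9:5345226-5345448) holds TTCNNNGAA at 2 places, beginning 102 and 36 bases before its RefSeq start, as do 0.457% of all windows. The nearer place lies within the gene as deposited, whose start is upstream of that of RefSeq. A match is a run of letters and not a tested site.
Casp4: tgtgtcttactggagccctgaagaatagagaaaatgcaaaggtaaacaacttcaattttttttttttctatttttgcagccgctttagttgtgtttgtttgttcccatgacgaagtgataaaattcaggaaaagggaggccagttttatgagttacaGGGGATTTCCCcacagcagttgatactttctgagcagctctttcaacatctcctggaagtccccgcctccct
Casp12: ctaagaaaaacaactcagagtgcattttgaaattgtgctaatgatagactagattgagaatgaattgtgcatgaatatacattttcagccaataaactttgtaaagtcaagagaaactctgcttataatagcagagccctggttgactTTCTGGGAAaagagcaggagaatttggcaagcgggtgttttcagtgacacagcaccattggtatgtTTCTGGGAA
Nlrp3: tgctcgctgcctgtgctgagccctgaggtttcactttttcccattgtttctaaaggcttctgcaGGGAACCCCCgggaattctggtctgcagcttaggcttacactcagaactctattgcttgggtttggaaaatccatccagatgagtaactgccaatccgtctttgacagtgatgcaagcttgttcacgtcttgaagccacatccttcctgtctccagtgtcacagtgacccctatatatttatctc

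In the hearts labelled Lmna shRNA, 8 of the 9 genes were higher than in the controls of the same batch, and this held in both batches. The largest changes were in Casp4, Nlrp3 and Casp12, between 2.67-fold and 3.45-fold in either batch, and the smallest in Gsdmd. Pycard, the gene of the adaptor ASC, was the exception in both batches. Of all genes tested, 33.3% were called higher in batch LC (edgeR, adjusted p under 0.05) and 32.4% in batch LA, so a large share of the transcriptome moved. The 9 genes were chosen with earlier results of these data known, so their count beside this share is a description only. The median log2 fold change of the 9 was 1.05 in batch LC and 0.81 in batch LA, against 0.05 over all genes tested in each. Groups did not overlap for 8 of 9 genes in batch LC (34.7% of all genes, in this direction) and for 7 in batch LA (35.8%).

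**Figure D1:**
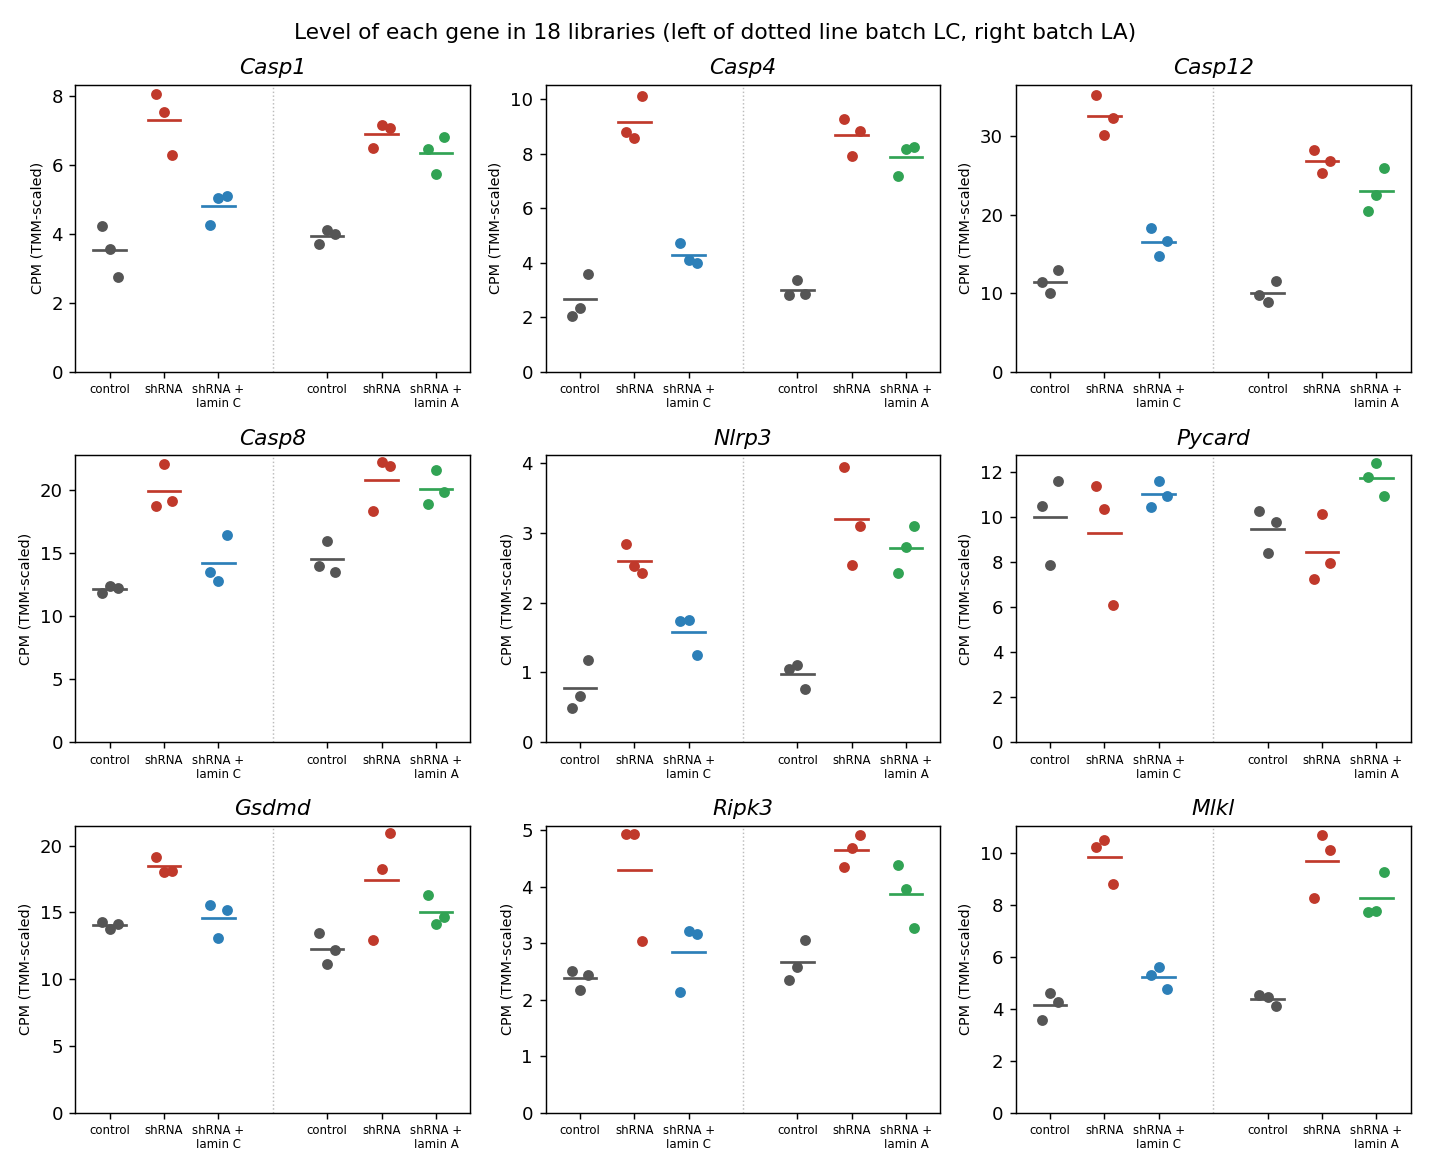
Level of each of the 9 genes in CPM (y axis, from 0) in all 18 libraries (points), with the group mean as a line, for control, Lmna shRNA, and Lmna shRNA with Lamin C (batch LC, left) or Lamin A (batch LA, right). The shRNA libraries of Casp4 sit between 7.93 and 10.1 CPM in both batches against 2.06 to 3.58 in the controls, the lamin C libraries between 3.99 and 4.73, and the lamin A libraries between 7.16 and 8.24.

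Casp4 encodes the mouse caspase also called caspase-11, the intracellular sensor of bacterial lipopolysaccharide that cuts gasdermin D without an inflammasome. In batch LC its level was 2.06, 2.35 and 3.58 CPM in the controls, 8.77, 8.59 and 10.1 CPM in the shRNA hearts, and 4.73, 4.10 and 3.99 CPM with Lamin C. The third control was the highest of its group but far under every shRNA heart, and the lamin C hearts lay between both groups without overlap. In batch LA the level was 2.80, 3.36 and 2.85 CPM in the controls, 9.25, 7.93 and 8.81 CPM in the shRNA hearts, and 7.16, 8.18 and 8.24 CPM with Lamin A, which overlapped the shRNA hearts. The log2 fold change of shRNA against control was 1.79 ± 0.16 (adjusted p = 5.98e-09) in batch LC and 1.53 ± 0.15 (adjusted p = 4.57e-08) in batch LA. Without the third controls it was 2.04 and 1.48.

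Casp12, which lies next to Casp4 and is known as a caspase of the endoplasmic reticulum, had the most counts of the cluster. Its level was 11.4, 10.1 and 12.9 CPM in the controls of batch LC, 35.2, 30.2 and 32.3 CPM in the shRNA hearts, and 18.4, 14.7 and 16.6 CPM with Lamin C. In batch LA it was 9.71, 8.92 and 11.5 CPM in the controls, 28.3, 25.4 and 26.8 CPM in the shRNA hearts, and 20.5, 22.5 and 26.0 CPM with Lamin A. Every control stood far under every shRNA heart, while 1 lamin A heart exceeded the lowest shRNA heart of its batch. The rise was 1.51 ± 0.11 (adjusted p = 5.80e-10) in batch LC and 1.42 ± 0.11 (adjusted p = 1.82e-09) in batch LA.

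Casp1 encodes the protease that inflammasomes activate. Its level was 4.25, 3.58 and 2.76 CPM in the controls of batch LC, 8.07, 7.55 and 6.29 CPM in the shRNA hearts, and 4.26, 5.05 and 5.09 CPM with Lamin C. In batch LA it was 3.72, 4.11 and 4.0 CPM in the controls, 6.51, 7.17 and 7.07 CPM in the shRNA hearts, and 6.47, 5.75 and 6.82 CPM with Lamin A. The third control of batch LC, highest of its group for Casp4, was the lowest for Casp1, and the third shRNA heart of that batch was likewise highest for Casp4 and lowest for Casp1. Casp1 rose by 1.05 ± 0.14 (adjusted p = 2.31e-06) in batch LC and 0.81 ± 0.14 (adjusted p = 4.66e-05) in batch LA.

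Casp8 encodes the initiator caspase of death receptors, which also holds necroptosis in check. Its level was 11.8, 12.4 and 12.2 CPM in the controls of batch LC, 18.7, 22.1 and 19.1 CPM in the shRNA hearts, and 13.5, 12.8 and 16.4 CPM with Lamin C. In batch LA it was 14.0, 16.0 and 13.5 CPM in the controls, 18.4, 22.2 and 21.9 CPM in the shRNA hearts, and 18.9, 21.6 and 19.9 CPM with Lamin A. Its rise under shRNA was smaller than that of the chromosome 9 caspases, at 0.71 ± 0.10 (adjusted p = 5.44e-06) and 0.52 ± 0.10 (adjusted p = 0.000166), with no overlap between control and shRNA hearts in either batch.

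Nlrp3, the sensor, was the scarcest of the 9 genes, with 15 to 167 counts in a library. Its level was 0.490, 0.667 and 1.18 CPM in the controls of batch LC, 2.84, 2.53 and 2.42 CPM in the shRNA hearts, and 1.73, 1.75 and 1.25 CPM with Lamin C. In batch LA it was 1.05, 1.11 and 0.757 CPM in the controls, 3.94, 2.55 and 3.11 CPM in the shRNA hearts, and 2.42, 2.81 and 3.11 CPM with Lamin A. The lowest shRNA heart thus stood above every control, and the lamin A hearts fell within the span from the lowest to the highest shRNA heart except for 1 just below it. Nlrp3 rose by 1.75 ± 0.26 (adjusted p = 9.35e-06) in batch LC and 1.71 ± 0.25 (adjusted p = 6.81e-06) in batch LA. Without the third controls the rise was 2.16 in batch LC and 1.56 in batch LA.

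Pycard encodes ASC, the adaptor that joins NLRP3 to caspase-1. Its level was 10.5, 7.86 and 11.6 CPM in the controls of batch LC, 11.4, 10.3 and 6.09 CPM in the shRNA hearts, and 10.4, 11.6 and 10.9 CPM with Lamin C. In batch LA it was 10.2, 8.39 and 9.77 CPM in the controls, 7.22, 10.1 and 7.95 CPM in the shRNA hearts, and 11.8, 12.4 and 10.9 CPM with Lamin A. Control and shRNA hearts overlapped in both batches. The log2 fold change was -0.10 ± 0.18 (95% interval -0.48 to 0.28, adjusted p = 0.643) in batch LC and -0.17 ± 0.18 (-0.55 to 0.21, adjusted p = 0.442) in batch LA, and its sign flipped when libraries were scaled to their totals alone (0.32 and 0.27). Both upper bounds lie under the fitted rise of each of the other 8 genes in that batch. The third shRNA heart of batch LC was the lowest of all 18 for Pycard, and without it the value in batch LC was 0.12.

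Gsdmd encodes the pore-forming gasdermin D. Its level was 14.3, 13.7 and 14.1 CPM in the controls of batch LC, 19.1, 18.1 and 18.1 CPM in the shRNA hearts, and 15.6, 13.1 and 15.2 CPM with Lamin C. In batch LA it was 13.5, 11.1 and 12.2 CPM in the controls, 13.0, 18.3 and 21.0 CPM in the shRNA hearts, and 16.3, 14.1 and 14.6 CPM with Lamin A. The first shRNA heart of batch LA lay among the controls, and the other two stood well above. The rise was 0.39 ± 0.13 (adjusted p = 0.0103) in batch LC and 0.50 ± 0.13 (adjusted p = 0.00186) in batch LA.

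Ripk3 encodes the kinase of necroptosis. Its level was 2.52, 2.18 and 2.43 CPM in the controls of batch LC, 4.94, 4.93 and 3.03 CPM in the shRNA hearts, and 2.13, 3.22 and 3.16 CPM with Lamin C. In batch LA it was 2.36, 2.58 and 3.07 CPM in the controls, 4.34, 4.69 and 4.92 CPM in the shRNA hearts, and 4.39, 3.96 and 3.28 CPM with Lamin A. The third shRNA heart of batch LC, low for Pycard, was low for Ripk3 too and fell below 2 lamin C hearts. Ripk3 rose by 0.86 ± 0.20 (adjusted p = 0.000838) in batch LC and 0.80 ± 0.19 (adjusted p = 0.00125) in batch LA.

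Mlkl encodes the pseudokinase that RIPK3 phosphorylates and that breaches the membrane. Its level was 3.56, 4.60 and 4.26 CPM in the controls of batch LC, 10.2, 10.5 and 8.81 CPM in the shRNA hearts, and 5.30, 5.60 and 4.77 CPM with Lamin C. In batch LA it was 4.52, 4.47 and 4.11 CPM in the controls, 8.28, 10.7 and 10.1 CPM in the shRNA hearts, and 7.74, 7.78 and 9.27 CPM with Lamin A. All lamin C hearts lay above the controls and below the shRNA hearts, while 1 lamin A heart exceeded the lowest shRNA heart. Mlkl rose by 1.25 ± 0.13 (adjusted p = 5.04e-08) in batch LC and 1.15 ± 0.13 (adjusted p = 1.59e-07) in batch LA.

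**Figure D2:**
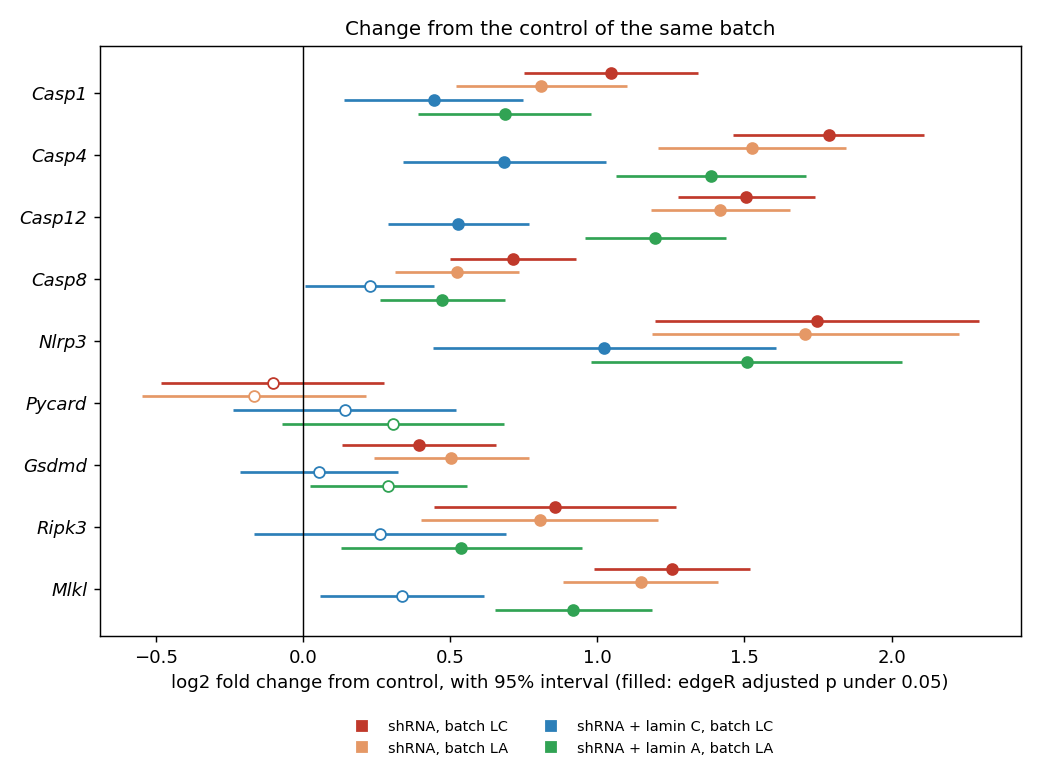
Log2 fold change from the control of the same batch (x axis) for each gene (y axis), with 95% interval from edgeR, for Lmna shRNA in both batches and for the added lamins. Filled points have an adjusted p under 0.05. Pycard crosses 0 in all 4 comparisons, and its sign under shRNA flips with scaling to library totals. The shRNA intervals of the other 8 genes lie right of 0.

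The shRNA effect of the 2 batches was compared directly. For 0 of the 9 genes did it differ (adjusted p from 0.873 to 0.996), with 0 genes at an unadjusted p under 0.05 and 0 by DESeq2, and 0.00559% of all genes were called. The widest interval was that of Nlrp3, whose difference of 0.04 could lie between -0.72 and 0.79.

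Compared per gene length by the deposited FPKM, Casp12 and Casp4 took higher places among the genes in the shRNA hearts than in the controls. In the controls of batch LC, Gsdmd was highest at 5.79 ± 0.126 FPKM (SD, n = 3), then Casp8 at 4.12 ± 0.0993 and Casp12 at 2.93 ± 0.366. Pycard (2.57), Casp1 (2.31) and Mlkl (1.76 FPKM) followed, then Ripk3 at 1.01, Casp4 at 0.703 and Nlrp3 at 0.188 FPKM. Casp12 through Mlkl overlapped with their neighbours in this order, as did Ripk3 and Casp4, whereas Gsdmd, Casp8 and Nlrp3 stood clear. In the shRNA hearts of batch LC, Casp12 came first at 8.26 ± 0.630 FPKM, overlapping Gsdmd at 7.56 ± 0.253, and Casp4 at 2.40 reached Pycard at 2.37. In batch LA, Gsdmd was first in the controls (5.05 ± 0.476 FPKM) and in the shRNA hearts (7.12 ± 1.67), where Casp8 (7.01 ± 0.723) and Casp12 (6.80 ± 0.371) followed and overlapped in sequence. Casp12 stood behind Casp1 in those controls, at 2.56 ± 0.348 FPKM. With Lamin C, Gsdmd was first again at 6.01 FPKM and Casp12, after Casp8, at 4.21. With Lamin A, Casp8 (6.79), Gsdmd (6.16) and Casp12 (5.84 FPKM) overlapped in sequence, and Nlrp3 stayed last in all 6 groups.

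With Lamin C, 8 of the 9 genes were lower than in the shRNA hearts of batch LC, against 28.4% of all genes tested. The median over the 9 was a log2 fold change of -0.60, and -0.04 over all genes tested. Casp4 fell by 1.10 ± 0.15 (adjusted p = 2.70e-06), Casp12 by 0.98 ± 0.11 (adjusted p = 2.52e-07) and Mlkl by 0.92 ± 0.12 (adjusted p = 3.14e-06). Nlrp3 fell by 0.72 ± 0.23, Casp1 by 0.60 ± 0.13, Ripk3 by 0.60 ± 0.19, Casp8 by 0.49 ± 0.10 and Gsdmd by 0.34 ± 0.12, with adjusted p from 0.000401 for Casp8 to 0.0270 for Gsdmd. Groups did not overlap for 7 genes (31.9% of all genes in this direction), and Ripk3 overlapped. Pycard was at 0.24 ± 0.18 (adjusted p = 0.260), with a flipped sign of -0.07 under scaling to library totals. Leaving out 1 library at a time left 5 to 8 genes called, the 5 without the first shRNA heart, when Nlrp3 (adjusted p = 0.0513), Gsdmd (adjusted p = 0.0794) and Ripk3 (adjusted p = 0.0690) were not called. Ripk3 was also lost without the second shRNA heart or the first lamin C heart and with only the groups compared (adjusted p = 0.0596), Gsdmd without the second lamin C heart and Nlrp3 without the third. This comparison and that of shRNA with control share the shRNA hearts.

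With Lamin A, edgeR called 0 of the 9 genes against the shRNA hearts of batch LA, where 29.8% of all genes tested changed in either direction. At an unadjusted p under 0.05 stood 2 of them, Casp12 and Pycard, and DESeq2 called 1, Pycard, higher. The values of the other 8 ran from -0.27 ± 0.18 for Ripk3 to -0.05 ± 0.10 for Casp8. For Casp4 the interval from -0.43 to 0.15 and for Casp12 that from -0.44 to 0.00 exclude falls as large as those with Lamin C. Pycard stood at 0.47 ± 0.18 (adjusted p = 0.0519), with every lamin A heart above every shRNA heart (23.2% of all genes, in this direction). The count depends on the scaling: relative to library totals the median of all genes shifted by -0.20 in this comparison, and 5 genes were then called lower (Casp12 -0.42, Mlkl -0.43, Ripk3 -0.47, Gsdmd -0.42 and Casp8 -0.25, log2). Without the first shRNA heart of batch LA, Gsdmd was called lower at -0.39 (edgeR adjusted p = 0.00552), and without the second, Pycard higher at 0.63 (0.0231). Without the third lamin A heart, Casp12 was called lower at -0.32 (0.0471).

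The difference of both lamin effects, each against its own shRNA hearts, was called for 4 of 9 genes, all lower with Lamin C, against 9.9% of all genes tested. It was -0.96 ± 0.20 for Casp4 (adjusted p = 0.00225), -0.76 ± 0.15 for Casp12 (adjusted p = 0.00155), -0.69 ± 0.17 for Mlkl (adjusted p = 0.00762) and -0.44 ± 0.14 for Casp8 (adjusted p = 0.0344). It was -0.48 ± 0.19 for Casp1 (adjusted p = 0.0845), -0.52 ± 0.32 for Nlrp3 and -0.33 ± 0.26 for Ripk3, which were not called, nor were Gsdmd at -0.12 and Pycard at -0.23. Casp8 lost its call (adjusted p from 0.0577 to 0.106) without the second shRNA heart of batch LC, the first or second lamin C heart, the first shRNA heart of batch LA, or the second or the third lamin A heart, and with only the groups compared (adjusted p = 0.0549). Casp1 was called as well without the third shRNA heart of batch LC (-0.58, adjusted p = 0.0414) and with library totals (-0.59, adjusted p = 0.0297). The lamin, the batch and the level of Lmna RNA, 1064 to 1375 CPM with Lamin C and 502 to 556 CPM with Lamin A, cannot be told apart here.

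**Figure D3:**
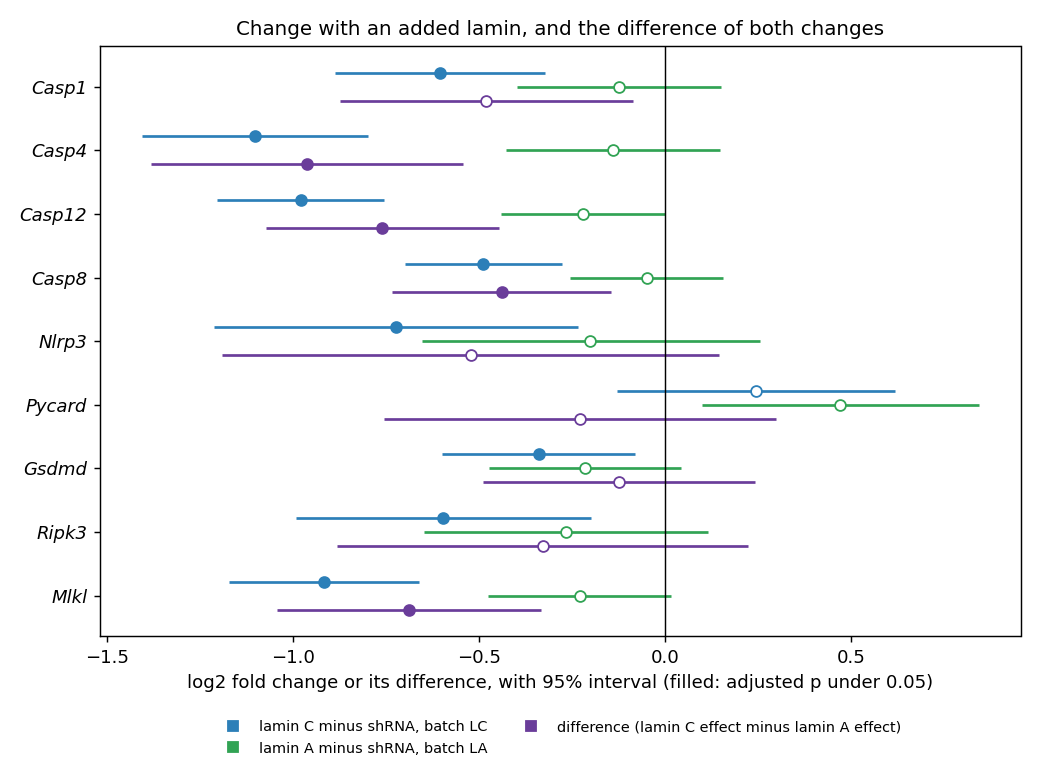
Log2 fold change of the added lamin against the shRNA hearts of its batch, and the difference of both changes (x axis), for each gene (y axis), with 95% intervals from edgeR and filled points for an adjusted p under 0.05. The lamin C values are filled and left of 0 for 8 genes, no lamin A value is filled, and the difference is filled for Casp4, Casp12, Casp8 and Mlkl. The sign of Pycard with Lamin C flips with scaling to library totals.

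Against the controls, which these comparisons share with those of the shRNA hearts, 4 of 9 genes remained higher with Lamin C, where 8.87% of all genes tested were higher. They were Nlrp3 at 1.02 ± 0.28 (adjusted p = 0.0167), Casp4 at 0.68 ± 0.16 (adjusted p = 0.00792), Casp12 at 0.53 ± 0.11 (adjusted p = 0.00399) and Casp1 at 0.44 ± 0.15 (adjusted p = 0.0464). Mlkl (0.34 ± 0.13, adjusted p = 0.0974) and Casp8 (0.23 ± 0.10, adjusted p = 0.164) did not overlap the controls and were not called, but were with library totals (0.45, adjusted p = 0.0260, and 0.34, adjusted p = 0.0359). Gsdmd at 0.05, Ripk3 at 0.26 and Pycard at 0.14 overlapped. The count was 2 without the first or the second control or the second lamin C heart, and 3 without each other library of the comparison. Of the 4, Casp12 alone was called in all 6 of these fits. Casp4 was lost without the first control (adjusted p = 0.0544), Nlrp3 without the first or second control or the first or second lamin C heart (0.0511 to 0.0973), and Casp1 without the second or the third control or the second or the third lamin C heart (0.0920 to 0.198). Without the third control Casp1 was at 0.30. With only the groups compared, Casp4 (adjusted p = 0.0714), Nlrp3 (adjusted p = 0.0840) and Casp1 (adjusted p = 0.143) were not called.

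With Lamin A, 7 of 9 genes were higher than in the controls, against 24.1% of all genes tested. Nlrp3 was at 1.51 ± 0.25 (adjusted p = 6.26e-05), Casp4 at 1.39 ± 0.15 (adjusted p = 4.79e-07), Casp12 at 1.2 ± 0.11 (adjusted p = 6.41e-08) and Mlkl at 0.92 ± 0.13 (adjusted p = 7.14e-06). Casp1 was at 0.69 ± 0.14, Casp8 at 0.47 ± 0.10 and Ripk3 at 0.54 ± 0.20 (adjusted p = 0.0302). Ripk3 lost its call without the first or second control or the first or second lamin A heart (adjusted p from 0.0714 to 0.119). Gsdmd (0.29 ± 0.13, adjusted p = 0.0713) and Pycard (0.30 ± 0.18, adjusted p = 0.178) were not called, although for all 9 genes every lamin A heart stood above every control (29.1% of all genes, in this direction). Both were called with library totals (Gsdmd 0.53, adjusted p = 0.00333; Pycard 0.54, adjusted p = 0.0163), and also with no filter on low counts (adjusted p = 0.0120 and 0.0255) and with only the groups compared (adjusted p = 0.0179 and 0.0203). The distance from control was smaller with Lamin C than with Lamin A for Casp12 (-0.67 ± 0.16, adjusted p = 0.00872), Casp4 (-0.70 ± 0.23, adjusted p = 0.0431) and Mlkl (-0.58 ± 0.18, adjusted p = 0.0398), 3 of 9 genes against 7.35% of all. Without the third control of each batch only Casp12 was called, with Casp4 at -0.40 (adjusted p = 0.267) and Mlkl at -0.52 (adjusted p = 0.143). Casp12 was also called without any 1 of the 12 libraries, and 1 gene in all was called without the third control of batch LC, the first or the third of batch LA, the third lamin C heart or the third lamin A heart. With only the groups compared, Casp4 was not called (adjusted p = 0.0747). Casp4 alone was lost without the second lamin C or lamin A heart, and Mlkl alone without the second control of either batch or the first lamin C heart.

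The rest of the pathway was read from 6 lists of 75 related genes, of which 72 were tested (not Nlrp6, Il1a and Gsdmc). In the shRNA hearts 45 of 72 were higher and 14 lower in batch LC, against 33.3% and 29.6% of all genes. In batch LA 44 were higher and 15 lower, against 32.4% and 29% of all genes. The medians were 0.73 and 0.53. With Lamin C 10 were higher and 40 lower than in the shRNA hearts (25.7% and 28.4% of all genes), and with Lamin A 7 and 17 (16.1% and 13.7% of all genes). Scaled to library totals, 61 were higher and 5 lower under shRNA in batch LC and 60 and 6 in batch LA, 4 higher and 57 lower with Lamin C, and 6 higher and 37 lower with Lamin A.

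Of 9 tested cytokines of the inflammasome and their receptors, 8 were higher and 0 lower under shRNA in batch LC, and 9 in batch LA. Il1b, the substrate of caspase-1, rose by 2.86 ± 0.40 in batch LC and 2.62 ± 0.37 in batch LA, from means of 0.286 and 0.382 CPM in the controls. Il18 rose by 2.76 ± 0.47 and 1.81 ± 0.42, also from under 1 CPM. The receptor antagonist Il1rn rose by 6.08 ± 0.38 and 4.66 ± 0.32, from 0.0791 and 0.206 CPM, near the 3-count floor. Its level was 5.67 CPM in the shRNA hearts of batch LC and 1.47 CPM with Lamin C, but 5.19 and 6.15 CPM in the shRNA and lamin A hearts of batch LA, and the difference of the lamin effects was -2.21 ± 0.30 (adjusted p = 8.29e-05). The interleukin-1 receptor Il1r1 rose by 1.18 ± 0.10 and 0.92 ± 0.10, and its difference was -0.80 ± 0.14 (adjusted p = 0.000676). Its partner Il1rap rose by 1.03 ± 0.10 and 1.04 ± 0.10, and was lower with Lamin C (-0.94 ± 0.10) and with Lamin A (-0.51 ± 0.09).

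Of 11 tested sensors, triggers and regulators, 8 were higher and 1 lower in batch LC, and 9 and 1 in batch LA. Panx1, a channel that releases ATP, rose by 3.80 ± 0.18 and 3.68 ± 0.18, from 1.96 CPM to 27.2 CPM in batch LC. P2rx7, the ATP receptor upstream of NLRP3, rose by 1.54 ± 0.11 and 1.3 ± 0.11, and Naip2, a sensor of bacterial secretion proteins, by 1.13 ± 0.12 and 1.11 ± 0.12. These 3 genes fell with both lamins, Panx1 by 2.52 ± 0.15 with Lamin C and 0.86 ± 0.14 with Lamin A. Among the 3 tested pore and rupture genes, Gsdme, another gasdermin, rose by 2.67 ± 0.30 and 3.0 ± 0.32. Gsdma was scarce and rose by 1.96 ± 0.61 in batch LC, with 1.45 ± 0.64 (adjusted p = 0.0565) in batch LA. Ninj1, needed for the final rupture of the membrane, rose by 0.20 ± 0.07 and 0.23 ± 0.07.

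Of 23 genes of death receptors, their ligands and the RIPK1 complex, 15 were higher and 5 lower in batch LC, and 14 and 5 in batch LA. With library totals, 21 were higher and 0 lower in batch LC, and 20 and 0 in batch LA. Zbp1, a nucleic acid sensor that binds RIPK3, rose by 3.90 ± 0.18 and 3.83 ± 0.18, from 1.58 to 23.4 CPM in batch LC, and fell by 2.36 ± 0.16 with Lamin C and by 1.40 ± 0.15 with Lamin A. Ripk1, the kinase upstream of RIPK3, rose by 0.83 ± 0.10 and 0.81 ± 0.10. The tumour necrosis factor receptor Tnfrsf1a rose by 0.92 ± 0.07 and 0.83 ± 0.07, fell with Lamin C by 0.54 ± 0.07, and was at 0.13 ± 0.07 (adjusted p = 0.164) with Lamin A. Otulin, a deubiquitinase of the complex, rose by 0.99 ± 0.10 and 1.11 ± 0.10. Fadd, the adaptor of caspase-8, was lower by -0.36 ± 0.06 and -0.51 ± 0.06, but in batch LC the sign flipped to 0.07 with scaling to library totals.

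Among the other caspases, Casp2 rose by 0.47 ± 0.09 and 0.22 ± 0.09. Of 21 genes of mitochondrial apoptosis and the Bcl-2 family, 9 were higher and 7 lower in batch LC, and 8 and 8 in batch LA (14 and 5 in each with library totals). Of all genes tested, 33.3% were higher and 29.6% lower in batch LC, and 32.4% and 29% in batch LA. Bok, a pore-forming Bcl-2 relative, rose by 2.13 ± 0.15 and 1.90 ± 0.14, and Apaf1, the scaffold of the apoptosome, by 1.03 ± 0.07 and 0.84 ± 0.07. Aifm1, a flavoprotein of the mitochondrial inner membrane, fell by 1.09 ± 0.07 and 1.03 ± 0.07.

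Cell type markers moved with these genes. Over 14 macrophage markers the summed level was 450 to 562 CPM in the controls of batch LC, 1720 to 1913 CPM in the shRNA hearts and 784 to 937 CPM with Lamin C. In batch LA it was 507 to 538, 1690 to 1835 and, with Lamin A, 1487 to 1615 CPM. Of the 14, 13 were higher under shRNA in each batch, 13 were lower with Lamin C and 7 with Lamin A, and 11 differed between the lamin effects. The 5 pan-leukocyte markers took 63.9 to 76.2 CPM in the controls and 247 to 263 CPM in the shRNA hearts of batch LC, and 5 of 5 were higher in each batch. Fibroblast markers (7 of 7 higher) took 807 to 952 CPM and 4244 to 5395 CPM there. Their single log2 fold changes under shRNA in batch LC ran from 0.64 to 5.49, with a median of 1.46. With Lamin C the fibroblast sum was 1244 to 1760 CPM, and with Lamin A 2828 to 3820 CPM. The median neutrophil sum was low but went from 2.29 to 10.8 CPM under shRNA in batch LC and from 2.81 to 9.07 CPM in batch LA, with 2 and 1 of 4 tested markers higher. The median sum was 3.8 CPM with Lamin C and 8.15 CPM with Lamin A, with 1 and 0 of the 4 lower than in the shRNA hearts. Ly6g, a defining marker, was at 0 in the controls and with either lamin, but was too scarce to be tested. T and NK cell markers went from a median sum of 2.39 to 9.46 CPM and from 3.92 to 9.51 CPM, and 7 of 10 were higher in each batch. For the difference between the lamin effects, 6 of 7 fibroblast and 5 of 5 pan-leukocyte markers were lower and 5 of 7 cardiomyocyte markers higher. B cell markers took 23.8 to 32.9 CPM, with 1 to 3 of the 6 at a group mean of 1 CPM or more. Under shRNA 1 of them was higher in batch LC and 2 were lower in batch LA, where library totals flipped 1. With Lamin C 2 were higher than in the shRNA hearts. The 6 endothelial and 7 cardiomyocyte markers were all lower under shRNA, where scaling to library totals flipped 2 of each in either batch. The cardiomyocyte sum was 72020 to 75540 CPM in the controls, 28830 to 33860 CPM in the shRNA hearts and 59780 to 61650 CPM with Lamin C. In batch LA it was 69800 to 71680, 31630 to 33090 and, with Lamin A, 44460 to 47310 CPM. Mitochondrially encoded RNA took 25.2% to 27.0% of counts in the controls and 13.0% to 15.6% in the shRNA hearts, 23.2% to 24.8% with Lamin C and 20.3% to 22.6% with Lamin A. The part of these cells and of this RNA in the changes of the 9 genes was not tested.

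**Figure D4:**
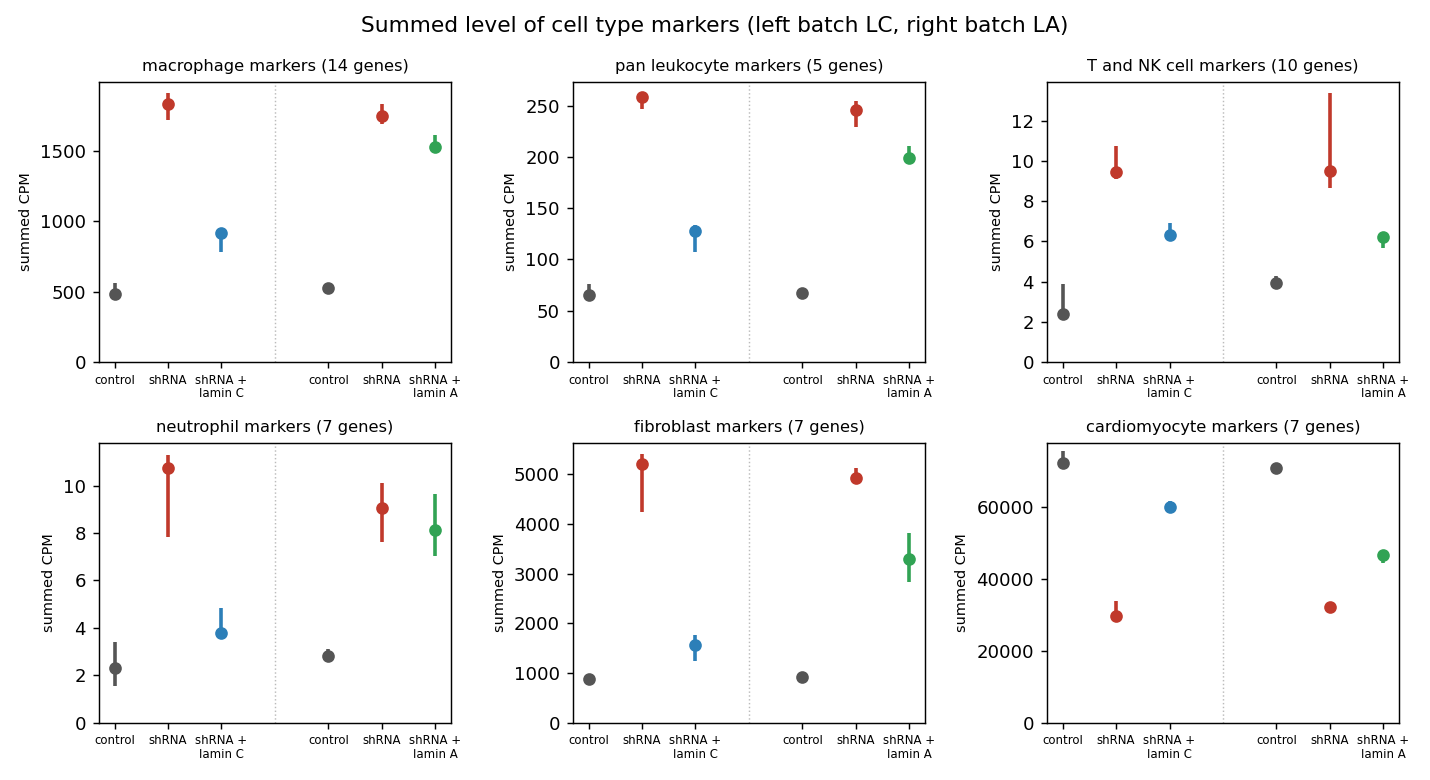
Summed CPM of the markers of 6 cell types (y axes, from 0), as the median (point) and the range (bar) of 3 libraries a group, batch LC left and batch LA right of the dotted line. The macrophage sum with Lamin A (1487 to 1615 CPM) stays nearer to that of the shRNA hearts than the sum with Lamin C (784 to 937 CPM), and the cardiomyocyte sum shows the opposite order of groups, with some of its genes flipping sign when scaled to library totals.

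The genes most similar to each member over the 18 libraries were taken from the 10490 protein-coding genes that averaged 5 CPM or more, by Pearson's r of log2 CPM, as a description. Casp4 was most like Ankrd1 (r = 0.99), a stress gene of cardiomyocytes, and Casp12 most like Serp1 (r = 0.98), a gene of the endoplasmic reticulum. Mlkl was most like Clec11a (0.98), Casp1 like Kdelr3 (0.96), Nlrp3 like Nmrk2 (0.96), Casp8 like Actb (0.95) and Ripk3 like Slfn9 (0.92). Gsdmd had its highest r with Fen1 (0.86) and Pycard with Nle1 (0.81). Within groups, the correlation of the same pairs ran from 0.53 for Casp12 to 0.83 for Ripk3, and it was 0.74 for Pycard.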

How the data were processed

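Mouse heart apex RNA was sequenced in 18 directional libraries of polyadenylated RNA, per the labels' protocols. The counts per gene are deposited by the authors as whole numbers with no scaling, and the FPKM values deposited by the authors beside them relate the count to gene length and library size. Per the submitters' processing notes, which state no roles, DESeq2 1.20.0, StringTie 1.3.3b, featureCounts 1.5.0-p3 and HISAT2 2.0.5 were used with mm10. Library totals of 31418657 to 41259968 counts set the precision, and the floor of 3 counts covers counting error only.

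The main test was edgeR 4.0.16 (R 4.3.3, quasi-likelihood F test), with TMM scaling and filterByExpr, all 18 libraries in 1 fit of 6 groups with 12 residual degrees of freedom, and Benjamini-Hochberg adjustment over 17876 genes. A gene was called at an adjusted p under 0.05. Standard errors came from the F statistic, and 95% intervals, which include the spread between libraries, from its degrees of freedom. There were 9 contrasts, including 3 differences between batches. Those of shRNA against control in each batch and the difference of these were checked on simulated counts, with changes placed in the shRNA hearts of batch LC. The contrasts with an added lamin were not checked in this way. The 9 genes, the 6 related lists and the marker lists were chosen with earlier results of these data known. Named with values are all 9, Il1b, Il18, Ripk1, Zbp1, Fadd, and on each related list the 3 called genes of smallest p in shRNA versus control of batch LC, and the gene of highest Pearson's r with each of the 9. Some genes that this rule names are not reported here. Promoter windows are from RefSeq (GRCm38.p6), and gene positions are those of the deposited table.

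No 2 libraries of a group were duplicates (chi-square per degree of freedom 5.98 to 39.2). Alternatives were DESeq2 1.42.0, RLE factors, library totals alone, no filter, no mitochondrially encoded genes, limma 3.58.1 on log2 FPKM with a pseudocount of 1 or 0.1 (genes at 1 FPKM or more in 3 libraries), only the groups compared, the replicate number as a block, and leaving out single libraries, or the third control of each batch together.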

Additional observations from a re-analysis of the deposited data

Results flagged for a closer look

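For 4 genes the effect of the added lamin, each against the shRNA hearts of its batch, differed between the batches by the interaction test of edgeR, and the fall was larger with Lamin C. The difference in log2 fold change was -0.96 for Casp4, -0.76 for Casp12, -0.69 for Mlkl and -0.44 for Casp8. Of all genes tested, 9.9% were called lower in this difference, and Casp8 lost its call in several fits without 1 library. For all 4 genes every lamin C heart lay below every shRNA heart of its batch, whereas the lamin A hearts overlapped theirs. The same held for Casp1, Nlrp3 and Gsdmd, which were not called for the difference. With Lamin C, 31.9% of all genes tested were lower without overlap. The same test of the lamin hearts against the controls differed for 3 genes, by -0.70 for Casp4, -0.67 for Casp12 and -0.58 for Mlkl. Of all genes tested, 7.35% were called lower there. Without the third control of each batch, Casp4 was at -0.40 (edgeR adjusted p = 0.267) and Mlkl at -0.52 (edgeR adjusted p = 0.143). Markers of other cells moved with these values: 11 of 14 macrophage, 6 of 7 fibroblast and 5 of 5 pan-leukocyte markers differed between the lamin effects in the same direction and 5 of 7 cardiomyocyte markers in the other. Their part was not tested. Lamin and batch cannot be told apart in these differences.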

How the results depend on the processing

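Of 90 counts of called genes under alternatives that keep single libraries in, 82 stayed within 1.5 times the main count. The counts from limma on FPKM leave out Nlrp3, which reached at most 0.945 FPKM in a library and so was not tested there. For Lamin A against shRNA, where 0 genes were called, library totals gave 5 (lower), and no filter, removal of mitochondrially encoded genes, the groups alone, DESeq2 and the fit without the third controls gave 1 each, Pycard higher. For Lamin C against control (4) the groups alone gave 1, and for the difference of lamin against control (3) the fit without the third controls gave 1. Without 1 library at a time the counts ran from 8 to 8 for shRNA in each batch, 5 to 8 for Lamin C against shRNA, 0 to 1 for Lamin A against shRNA, 2 to 3 for Lamin C and 6 to 7 for Lamin A against control. They ran from 0 to 0, 3 to 5 and 1 to 3 for the differences of shRNA, lamin against shRNA and lamin against control. The cause of these moves was not tested.

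Among the members, each sign change concerned a value that was not called with TMM scaling and all libraries. This did not hold for the related and marker lists, where library totals flipped the sign of some called genes. Fadd under shRNA in batch LC, for example, went from -0.36 to 0.07. Library totals gave Pycard 0.32 and 0.27 under shRNA (LC, LA) and -0.068 with Lamin C against shRNA, and the fit without the third controls gave Pycard 0.0058 (LC), Ripk3 -0.041 (difference of shRNA) and Nlrp3 0.087 (difference of lamin against control). limma with a pseudocount of 1 gave Ripk3 -0.0016 for the difference of shRNA. Without 1 library, Pycard ran from -0.28 to 0.12 under shRNA in batch LC and from -0.0055 to 0.26 for Lamin C against control. For the difference of shRNA, Pycard ran from -0.11 to 0.29, Nlrp3 from -0.21 to 0.46, Ripk3 from -0.060 to 0.25, Casp12 from -0.022 to 0.18 and Gsdmd from -0.28 to 0.048. Gsdmd ran from -0.28 to 0.048 for the difference of lamin against shRNA, and Casp8 from -0.13 to 0.0015 for Lamin A against shRNA.

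Same-numbered libraries did not deviate together: 0 of 18 pairs had a correlation over 0.1 (-0.05 to 0.06), and 4 of 18 libraries correlated best with their own number. The replicate block gave 8, 8, 8, 0, 3 and 6 called genes in the comparisons within batches and 0, 4 and 2 in the differences. Not called under the block were Casp1 for Lamin C against control (adjusted p = 0.0518), Ripk3 for Lamin A against control (0.0517) and Casp4 for the difference of lamin against control (0.0633).

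Over all genes, library totals moved the share of calls that were higher from 52.9% to 81.2% and 52.7% to 82.4% under shRNA (LC, LA), 47.5% to 20.2% with Lamin C and 54.1% to 17.1% with Lamin A against shRNA, 58.9% to 90.8% and 52.2% to 81.3% against control, and 47.2% to 25.2% for the difference of lamin against shRNA. The median of all genes shifted by 0.42, 0.44, -0.31, -0.20, 0.11 and 0.24 in the 6 comparisons within batches. The 1 gene called for the difference of shRNA became 247 with no filter, 8 by DESeq2, 24 without the third controls, 0 under the block and 0 with the groups alone, and ran from 0 to 47 without 1 library. Lamin C against control (2690) gave 1507 without the first and 1752 without the third lamin C heart, and the difference of lamin against control (2616) gave 1713 without the third controls. Depth limits Nlrp3 most, at 15 counts in its lowest library.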

Other observations

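Casp1 and Casp4, neighbours on chromosome 9, followed each other over the 18 libraries (Pearson r of log2 CPM = 0.86), but their deviations from the group means ran in opposite directions (r = -0.79, n = 18 libraries). Casp4 and Nlrp3 deviated together within groups (r = 0.82), as did Pycard and Ripk3 (r = 0.67), while over all 18 libraries Pycard had r between -0.14 and 0.07 with the other 8 genes. These were picked from 36 pairs after their values were seen, are descriptions of libraries that share depth and scaling, and were given no test.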
